A study of Mus musculus with 18 samples.

Results

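Primary mammary tumours labelled Wnt1_iR2 were compared with primary mammary tumours labelled Wnt1 alone, across every named gene of a mouse expression array. The comparison used 10 of the 18 arrays of the series, chosen by the label of the tumour channel: 4 arrays labelled Wnt1_iR2, called iR2 here, and 6 arrays labelled Wnt1. Another 4 arrays, labelled Wnt1_iFGFR1 and called iFGFR1, served only to ask where iR2 tumours differed from that receptor group, and the Wnt1_iFGFR2 arrays were kept out. Every title carried FVB, a mouse strain, MMTV, the name of the mammary tumour virus whose promoter is widely used to drive transgenes in mammary epithelium, and Wnt1. The Wnt1 group is therefore a control that carries Wnt1 as well, and the iR2 group adds iR2 to it. The labels do not expand iR2, and they give no treatment, time or age for any group. Each array held Cy5-labelled tumour RNA against a Cy3-labelled pool of RNA from the whole mouse, and a value is the log2 ratio of tumour to pool. Separate animals are not stated for the arrays of a group, so the p-values measure only spread among samples, and that spread may be technical.

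Wnt1 is a secreted ligand that stabilizes beta-catenin and keeps stem and progenitor cells of the mammary gland dividing. FGF receptors are tyrosine kinases that signal through ERK and AKT, and their activity is held in check by feedback genes such as the Sprouty and DUSP families that ERK itself induces. In the mammary gland both pathways act on ductal growth and on luminal progenitors, and the series title places the question in their cooperation in tumours.

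Luminal mammary markers were checked first, as ratios against the whole-mouse pool. Krt18, a luminal keratin, ran from 1.83 to 4.07 over the 10 arrays, Kit from 2.49 to 3.79 and Epcam from 1.40 to 2.82. Of the 10 luminal markers 8 lay above 0 on every array, while Krt8 ran from -0.03 to 2.65 and Ehf from -0.33 to 4.31, each with 1 Wnt1 array below 0. Of the 6 basal markers, Krt14 ran from 0.90 to 2.32, Trp63 from 1.16 to 2.93 and Krt5 from -0.83 to 0.65, while the contractile genes Acta2 and Cnn1 lay below 0 on every array. The iR2 arrays correlated with each other at 0.907 to 0.932 over all features, and the Wnt1 arrays other than replicate 3 at 0.797 to 0.882. Wnt1 replicate 3 stood apart: it correlated at 0.733 to 0.762 with the other Wnt1 arrays and at 0.805 to 0.831 with the iR2 arrays. Its milk casein Csn2 read 6.71, against -0.40 to 0.42 on the other Wnt1 arrays and -0.20 to 0.22 on the iR2 arrays. Results without this array are therefore given for the whole comparison and for some lists. Lists counted only with it changed as well. Without it, falls among nerve and glia genes went from 3 to 6, and rises among collagen chains from 1 to 4. Calls over all genes grew too: 11% rose without it, against 6.74% with it, and 12.8% fell, against 6.98%. List counts without this array are to be read beside those larger shares.

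**Figure D1:**
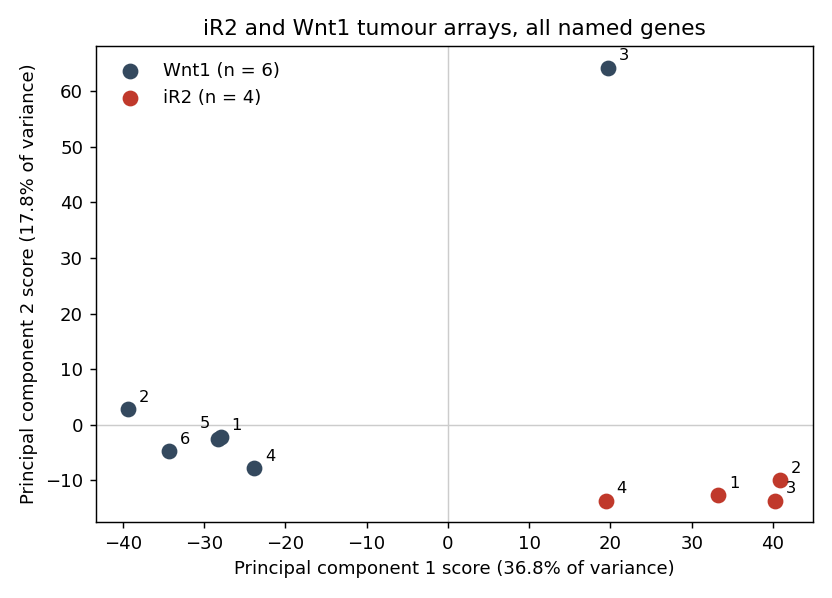
Scores of the 10 arrays on the first 2 principal components of the log2 ratios of all named genes, one point per array, numbered by replicate within its group. The 4 iR2 arrays lie at 19.4 to 40.9 on the first axis and 5 Wnt1 arrays at -39.3 to -23.8, while Wnt1 replicate 3 lies at 19.7 on the first axis and at 64.2 on the second.

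Of 16887 genes, 2317 (13.7%) differed between iR2 and Wnt1 by limma's moderated test with a Benjamini-Hochberg adjusted p below 0.05, and before adjustment 5190 genes lay below 0.05. The called genes divided evenly, with 1139 higher (6.74%) and 1178 lower (6.98%) in iR2, and the median difference over all genes was -0.05. On 1660 called genes the 4 iR2 arrays lay entirely past the 6 Wnt1 arrays, 836 above and 824 below. Over all genes, 6.24% had every iR2 array above and 7.35% every iR2 array below the Wnt1 arrays. At least 1 log2 unit separated the group means for 305 called genes that rose and 241 that fell.

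Leaving out Wnt1 replicate 3 raised the count to 1850 higher (11%) and 2154 lower genes (12.8%), and 2315 of the 2317 calls were among them. Leaving out iR2 replicate 2 lowered it to 840, the smallest count with any array left out. A call is said to hold below where its adjusted p stayed under 0.05 with each of the 10 arrays left out in turn. Of the 2317 calls, 661 held, 383 of them rises and 278 falls, and calls that did not hold are marked where they are named. The numbers in the titles of the iR2 arrays do not overlap those of the Wnt1 arrays, so whatever those numbers order cannot be told apart from the group.

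None of the genes named in the labels passed the test. The Wnt1 gene read 1.24, 2.01, 1.19 and 1.59 on iR2 arrays 1 to 4 and had a median of 1.68 (1.13 to 1.93) in Wnt1, a difference of -0.06 (SE 0.20, adjusted p = 0.877). The groups overlapped for this gene, and 3 iR2 arrays lay inside the Wnt1 range. Fgfr1, a main FGF receptor of mammary epithelium, read 0.55, 0.64, 0.56 and 0.48 in iR2 against a median of 0.24 (-0.06 to 0.36) in Wnt1. All 4 iR2 arrays lay above all Wnt1 arrays, but the difference of 0.34 did not pass (adjusted p = 0.0958). Fgfr2 differed by -0.32 (adjusted p = 0.306), Fgfr3 by 0.44 (adjusted p = 0.23) and Fgfr4 by -0.15 (adjusted p = 0.519). Fkbp1a, whose protein lends its drug-binding domain to many inducible receptors, differed by 0.09 (adjusted p = 0.81). Which parts of these genes the array features cover was not analysed here.

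The 5 largest rises among called genes whose groups do not overlap were in Car6, Scgb2b27, Cldn10, Aqp5 and Spdef. Car6, a carbonic anhydrase secreted into saliva and milk, and Scgb2b27, a secretoglobin, rose 26.7-fold and 26.0-fold. Cldn10, which forms ion pores in tight junctions, Aqp5, the water channel of salivary and lacrimal glands, and Spdef, an ETS transcription factor of secretory epithelium, rose by 3.02, 2.50 and 2.35 log2 units. The 100 bases upstream of the start are shown for 3 of these rises (Car6, Scgb2b27 and Spdef), and for the rise Tspan8, a tetraspanin gene, and the fall S100a4, which were picked because that window holds a searched motif. They are from RefSeq on GRCm38.p6, 5′ to 3′ on the gene's own strand, and capitals mark a motif found.
Car6 (chr4:150201136-150201235, minus strand): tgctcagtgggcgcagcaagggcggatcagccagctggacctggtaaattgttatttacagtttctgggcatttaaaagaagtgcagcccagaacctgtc
Scgb2b27 (chr7:34013943-34014042, minus strand): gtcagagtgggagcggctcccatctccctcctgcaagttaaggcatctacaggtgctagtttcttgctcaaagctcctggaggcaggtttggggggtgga
Spdef (chr17:27728952-27729051, minus strand): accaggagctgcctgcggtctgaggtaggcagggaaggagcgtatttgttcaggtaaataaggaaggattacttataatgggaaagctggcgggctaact
Tspan8 (chr10:115817184-115817283, plus strand): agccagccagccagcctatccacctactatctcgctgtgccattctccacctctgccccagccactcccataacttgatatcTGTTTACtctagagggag
S100a4 (chr3:90603670-90603769, plus strand): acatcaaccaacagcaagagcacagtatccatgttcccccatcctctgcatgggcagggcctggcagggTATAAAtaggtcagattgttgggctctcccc

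A set of 3 short motifs was searched on both strands in the 250 bases upstream of the start. TATAAA, the core of a TATA box, was found in 0 of the 9 matched genes among the 12 largest rises and in 4 of the 9 matched among the 12 largest falls (H4c4, Olfr665, Reg1 and S100a4), against 13.0% of 27025 promoters. TGTTTAC, the core that forkhead factors bind, was found upstream of Tspan8 alone among these genes, against 3.09% of promoters. CCGGAAGT, an ETS core, was found upstream of none of them, against 2.93%. The 27025 promoters include those of genes not on the array, and 13425 genes of the array had a start among them. The shares over array genes alone were not computed. A match describes the letters and is no evidence of binding.

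On the iR2 arrays 1 to 4, Car6 read 0.06, 2.48, 2.36 and -0.53, against a Wnt1 median of -3.80 (-3.97 to -2.71). The difference was 4.74 (SE 0.53, adjusted p = 0.00122), and it was 4.93 without Wnt1 replicate 3, the highest Wnt1 array. Scgb2b27 read 3.45, 4.85, 4.55 and 2.58 against a median of -0.96 (-1.24 to -0.40), a difference of 4.70 (SE 0.37, adjusted p = 0.000159). For both genes iR2 replicates 2 and 3 were highest and replicate 4 was low, and no iR2 array reached down to a Wnt1 array. Cldn10 read 1.38, 2.23, 1.84 and -0.19 against a median of -1.66 (-2.79 to -0.86), with an adjusted p of 0.00317. Aqp5 read 3.52, 4.35, 4.04 and 2.88 against a median of 1.25 (0.59 to 1.71), with an adjusted p of 0.00122. Spdef read 1.58, 2.72, 2.29 and 1.09 against a median of -0.51 (-0.71 to -0.04), with an adjusted p of 0.00122. The order of the arrays was the same in all 3 genes, with replicate 2 highest and replicate 4 lowest. All 5 calls held.

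The wider list of glandular secretion genes moved both ways. Of 32 measured, 8 rose (25%, against 6.74% of all genes) and 11 fell (34.4%, against 6.98%). The list median was -0.43 against -0.05 over all genes. The other rises were Foxa3, a forkhead factor (1.85, adjusted p = 0.00372), Slc12a2, the chloride-importing cotransporter of secretory acini (1.19, adjusted p = 0.00786), and Creb3l4 (0.91, adjusted p = 0.0214), whose call 2 omissions ended (up to 0.0820). Bhlha15, a transcription factor of acinar cells, fell from a Wnt1 median of 0.75 to readings of -0.68, -0.26, -0.65 and -0.42 (adjusted p = 0.00721). Muc4, a membrane mucin, fell by 1.23 (adjusted p = 0.0111) and Scgb3a1, another secretoglobin, by 0.90 (adjusted p = 0.0106), and these 3 falls held. The remaining 8 falls, in Bpifa2, Ttr, Klk1, Tff3, Pip, Bpifa1, Scgb1a1 and Tff1, were each ended by at least 1 omission. Of the list, 7 rises and 3 falls held, and without iR2 replicate 2 only 3 falls were called. With the interquartile range of each array as a covariate, an alternative added after the data were seen, 6 rises and 2 falls stayed past the threshold. That range was 0.83 to 0.92 on the iR2 arrays, 0.84 on Wnt1 replicate 3 and 0.91 to 1.04 on the other Wnt1 arrays. It follows the group in part, so here and below its effect and that of the group cannot be fully told apart.

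**Figure D2:**
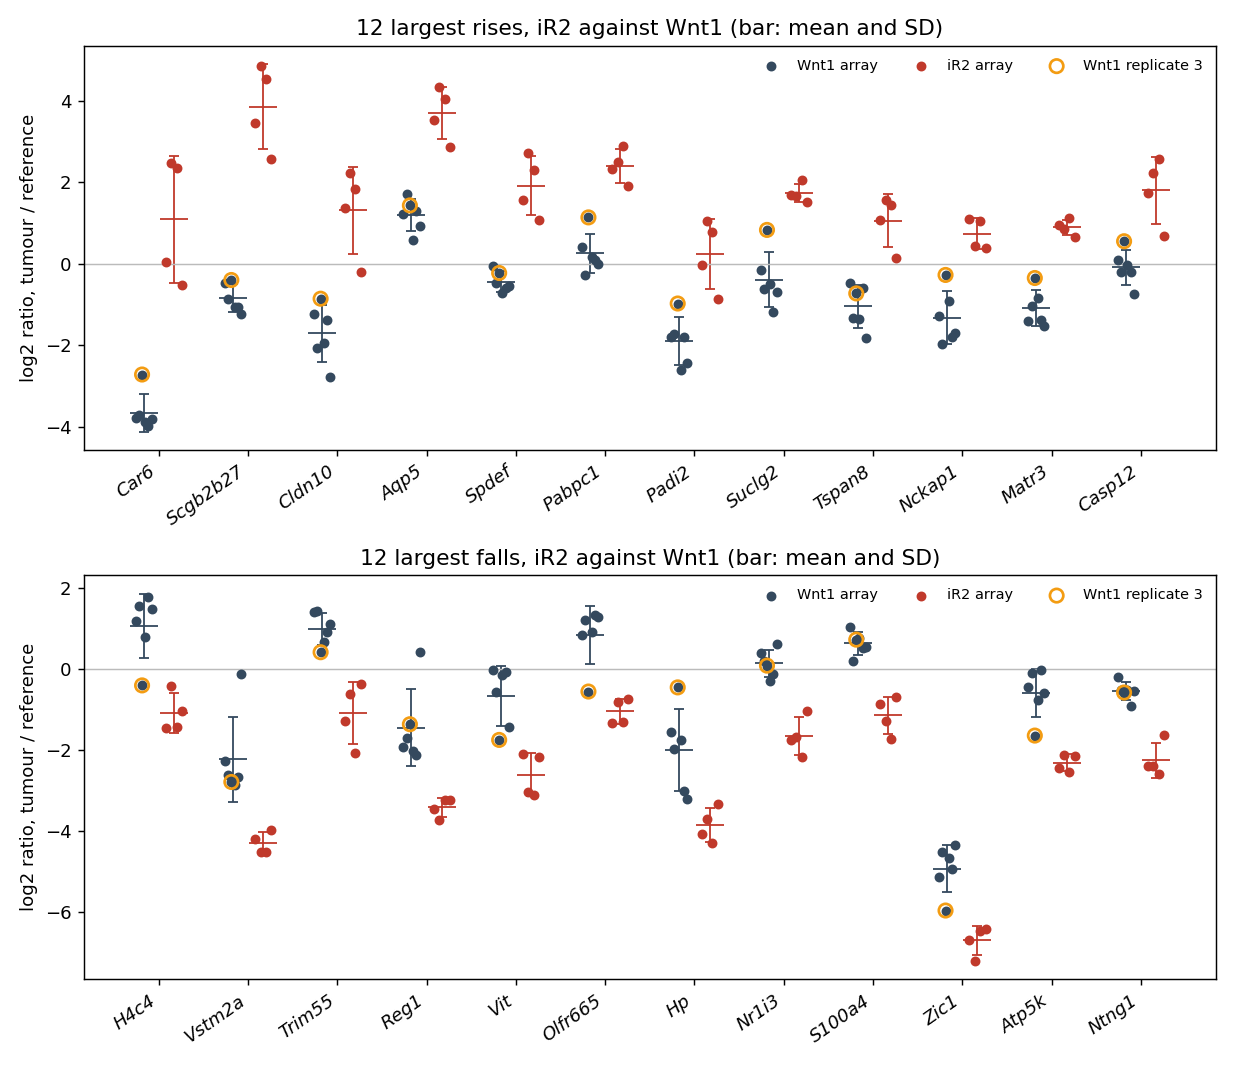
Log2 ratio of tumour to reference on each array for the 12 largest rises (top) and the 12 largest falls (bottom) among called genes whose groups do not overlap; points are arrays, bars the group mean and SD, and a ring marks Wnt1 replicate 3. The Car6 arrays of iR2, from -0.53 to 2.48, lie above those of Wnt1, from -3.97 to -2.71, and the Scgb2b27 arrays of iR2, from 2.58 to 4.85, above those of Wnt1, from -1.24 to -0.40.

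Another 7 genes completed the 12 largest rises, and all of their calls held. Pabpc1, the poly(A)-binding protein of translated mRNA, read 2.32, 2.49, 2.90 and 1.91 in iR2 against a Wnt1 median of 0.13 (-0.27 to 1.14), a rise of 2.15 (SE 0.26, adjusted p = 0.00145). Its highest Wnt1 reading was that of replicate 3. Padi2, an enzyme that turns arginine into citrulline, rose by 2.12 (adjusted p = 0.00584), and Suclg2, a subunit of mitochondrial succinyl-CoA ligase, by 2.12 (adjusted p = 0.00316). Tspan8, a tetraspanin of luminal cells, read 1.08, 1.56, 1.46 and 0.15 against a median of -1.03 (-1.81 to -0.47), a rise of 2.11 (SE 0.31, adjusted p = 0.00317). Nckap1, a subunit of the actin-regulating WAVE complex, rose by 2.06 (adjusted p = 0.00317), and Matr3, an RNA-binding protein of the nuclear matrix, by 1.98 (adjusted p = 0.00122). Casp12, a caspase of the endoplasmic reticulum, rose by 1.90 (adjusted p = 0.00529). For Suclg2, Nckap1 and Matr3, Wnt1 replicate 3 was again the Wnt1 array closest to iR2, at 0.83, -0.27 and -0.35.

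The 12 largest falls named a mixed set. S100a4, a calcium-binding protein of motile and mesenchymal cells, read -0.85, -1.28, -1.71 and -0.69 in iR2 against a Wnt1 median of 0.64 (0.22 to 1.06), a fall of 1.78 on the log2 scale (SE 0.21, adjusted p = 0.00145). Wnt1 replicate 3, at 0.73, lay among the other Wnt1 arrays. Nr1i3, the xenobiotic receptor CAR, read -1.76, -1.68, -2.16 and -1.03 against a median of 0.15 (-0.28 to 0.62), with a difference of -1.81 and an adjusted p of 0.00172. Ntng1, the axon guidance protein netrin-G1, read -2.38, -2.38, -2.59 and -1.62 against a median of -0.52 (-0.90 to -0.20), a mean over 11 features of the array (adjusted p = 0.00122). Trim55, a muscle RING-finger protein, differed by -2.07 (adjusted p = 0.00317). In these 4 genes the groups were well apart and the calls held.

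Other large falls included readings that set a single Wnt1 array apart. Reg1, a secreted lectin of the pancreas, differed by -1.96 (adjusted p = 0.0101) and Vstm2a, a secreted immunoglobulin-domain protein, by -2.07 (adjusted p = 0.0117), and Wnt1 replicate 6 was the highest array for both, at 0.43 and -0.12. H4c4, a histone H4 gene with near-identical copies that a probe may not separate, differed by -2.15 (adjusted p = 0.00529), and Olfr665, an olfactory receptor gene, by -1.88 (adjusted p = 0.00521). In both, Wnt1 replicate 3 was the lowest Wnt1 array, at -0.40 and -0.55. Vit, the matrix protein vitrin, differed by -1.94 (adjusted p = 0.00713), Zic1, a developmental zinc finger factor, by -1.77 (adjusted p = 0.00393) and Atp5k, a small subunit of ATP synthase, by -1.72 (adjusted p = 0.00373). These 7 calls held. Hp, the plasma protein haptoglobin, differed by -1.85 (adjusted p = 0.0178), and its call ended without iR2 replicate 3 (adjusted p = 0.0626) or iR2 replicate 1.

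Falls were more frequent among genes whose tumour signal lay far below the reference. Genes were sorted by their mean log2 ratio in the iFGFR1 tumours, which are not in the comparison. Of 168 genes below -4, 26.8% fell and 0% rose, and of 771 genes from -4 to -2, 25.4% fell and 1.82% rose. From -1 to 0 the shares were 6.11% and 5.72%, and above 2, over 158 genes, they were 2.53% and 20.3%. The 1st percentile of the ratios lay at -4.98 to -4.61 on the iR2 arrays and at -4.36 to -4.11 on the Wnt1 arrays. The part of this wider lower tail in the falls of low-ratio genes was not tested.

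**Figure D3:**
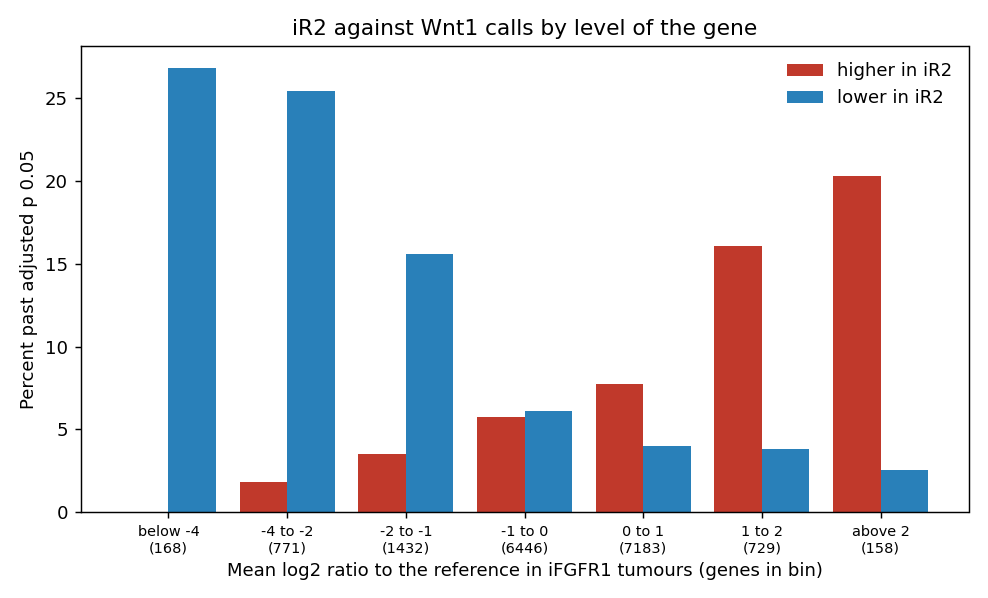
Percent of genes past an adjusted p of 0.05 in iR2 against Wnt1, higher in one colour and lower in the other, by the mean log2 ratio of the gene in the iFGFR1 arrays; the number of genes in each class stands under its label. Falls make up 26.8% of the lowest class and 2.53% of the highest, and rises 0% and 20.3%.

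Among 24 FGF ligands and receptors, 1 rose (4.17%, against 6.74% of all genes) and none fell, and the median was -0.16. The riser was Fgf1, an FGF that binds all FGF receptors, which read 0.88, 1.0, 1.02 and 1.0 in iR2 against a Wnt1 median of -0.11 (-0.48 to 0.72), a rise of 0.94 (adjusted p = 0.0176). That call ended without iR2 replicate 2 (adjusted p = 0.0564) or iR2 replicate 3.

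Of 26 genes of FGF and ERK feedback, 6 rose (23.1%, against 6.74% of all genes) and none fell, with a median of 0.13. Errfi1, the feedback inhibitor of the EGF receptor, read 1.23, 0.76, 1.15 and 0.03 against a median of -0.46 (-0.67 to -0.08), a rise of 1.22 (SE 0.23, adjusted p = 0.00677). Phlda1 read 3.21, 3.81, 3.96 and 2.51 against a median of 1.60 (1.23 to 2.93), a rise of 1.63 (adjusted p = 0.0106), and Spred1, an inhibitor of RAS to ERK signalling, rose by 0.78 (adjusted p = 0.0115). These 3 calls held. Dusp4, a phosphatase of ERK, rose by 0.77 (adjusted p = 0.0186), Myc by 0.63 (adjusted p = 0.0275) and Ier3 by 0.72 (adjusted p = 0.0339), and 3, 5 and 5 omissions ended these calls, with an adjusted p of up to 0.118 for Ier3. The feedback genes most often read for FGF signalling did not pass. Dusp6 differed by 0.54 (adjusted p = 0.0814), Etv5 by 0.43 (adjusted p = 0.187), Etv4 by -0.26 (adjusted p = 0.437), Spry2 by -0.21 (adjusted p = 0.425) and Spry4 by 0.16 (adjusted p = 0.648). Without Wnt1 replicate 3 the list had 6 rises and 3 falls, where 11% of all genes rose and 12.8% fell. With the interquartile range of each array as a covariate 1 rise passed.

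ERK signalling and tissue handling both induce immediate early and heat shock genes. Of 23 measured, 3 rose (13.0%, against 6.74% of all genes) and none fell. The mean of the list was 0.72 on iR2 replicate 1. On iR2 replicates 2, 3 and 4 it was 0.13, 0.13 and 0.23, inside the Wnt1 range of -0.03 to 0.25. The rises were in Nr4a1 (1.04, adjusted p = 0.0279), Klf6 (0.73, adjusted p = 0.0483) and Ier3, and 3, 7 and 5 omissions ended these calls. Ier3 is the gene already counted in the feedback list. Of 12 ligands and receptors of the EGF family, 1 rose and 1 fell (8.33% each, near the shares of all genes). Egf rose by 1.29 (adjusted p = 0.0287) and Nrg4 fell by 0.69 (adjusted p = 0.0271). Egf read 0.39 and 0.52 on iR2 replicates 2 and 3 but -1.08 and -1.38 on replicates 1 and 4, against a Wnt1 range of -2.04 to -1.26. Omissions ended the call 5 times for Egf and 4 times for Nrg4.

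Wnt targets and antagonists moved at about the rate of all genes: of 31, 3 rose and 3 fell (9.68% each, against 6.74% and 6.98% of all genes). Prom1, the progenitor surface protein prominin-1, read 2.33, 2.70, 2.63 and 2.04 against a Wnt1 median of 0.72 (0.26 to 1.25), a rise of 1.74 (SE 0.21, adjusted p = 0.00145) that held. The other calls, Myc and Rnf43 upward and Twist1, Dkk1 and Ascl2 downward, were ended by 5, 7, 3, 2 and 5 omissions. The standard target Axin2 differed by 0.25 (adjusted p = 0.457), Lgr5 by -0.10 (adjusted p = 0.853) and the antagonist Wif1 by -0.20 (adjusted p = 0.563). Without Wnt1 replicate 3 the list had 3 rises and 7 falls, where 11% of all genes rose and 12.8% fell.

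Among 26 Notch pathway genes, 2 rose and 2 fell (7.69% each, against 6.74% and 6.98% of all genes). Hey1, a transcriptional target of Notch, read 2.22, 2.77, 2.74 and 1.28 in iR2, and -0.38, -1.24, 1.77, -0.72, -0.71 and -0.31 in Wnt1. Wnt1 replicate 3 alone lay inside the iR2 range. The rise was 2.52 (SE 0.49, adjusted p = 0.00786) and 2.92 without that array (adjusted p = 0.00012), and the call held. Dtx1, another Notch-responsive gene, fell by 0.90 (adjusted p = 0.0117), a call that held. Adam10, a protease that releases Notch, rose by 0.59 (adjusted p = 0.0304) and Notch1 fell by 0.58 (adjusted p = 0.0465), and omissions ended these calls 6 and 8 times.

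Mammary lineage lists differed in their shares of calls in the complete comparison. Of 24 luminal progenitor and alveolar genes, 4 rose (16.7%, against 6.74% of all genes) and 1 fell (4.17%, against 6.98%). The list median was 0.28. Beside Tspan8, the rises were Kit, the progenitor receptor (0.67, adjusted p = 0.0275), Epcam (0.70, adjusted p = 0.0292) and Krt18 (1.17, adjusted p = 0.0353), ended by 5, 5 and 8 omissions. Itgb3, an integrin of luminal progenitors, read -0.05, 0.06, -0.27 and 0.16 against a median of 0.83 (0.66 to 0.98), a fall of 0.85 (SE 0.14, adjusted p = 0.00434) that held. Without Wnt1 replicate 3, 9 genes of the list rose, where 11% of all genes rose. Elf5, the alveolar transcription factor, read 3.50, 4.05, 3.98 and 3.74 in iR2 and 1.59 to 2.72 on 5 Wnt1 arrays, but 5.44 on replicate 3. Its difference had an adjusted p of 0.219 with that array and 0.00044 without it.

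Of 26 basal and myoepithelial genes, 1 rose and 1 fell (3.85% each, against 6.74% and 6.98% of all genes). Acta2, smooth muscle actin, rose and Tagln, another contractile protein, fell. Acta2 read -1.06, -1.67, -1.28 and -1.90 against a median of -2.81 (-3.26 to -1.86), a rise of 1.28 (SE 0.26, adjusted p = 0.00913) that held, while the fall of 0.50 in Tagln (adjusted p = 0.0403) was ended by 7 omissions. Of 16 hormone-sensing luminal genes, 2 rose (12.5%) and 1 fell (6.25%). Prom1 and Xbp1 rose and Greb1, an oestrogen receptor target, fell by 0.98 (adjusted p = 0.0127). The call of Xbp1 was ended by 8 omissions and that of Greb1 by 1. The receptors themselves, Esr1 and Pgr, differed by -0.13 (adjusted p = 0.826) and 0.09 (adjusted p = 0.726). Of 16 milk protein genes, only Glycam1 was called, a fall of 1.33 (adjusted p = 0.0274) ended by 5 omissions. Without Wnt1 replicate 3 there were 4 rises and 3 falls, where 11% of all genes rose and 12.8% fell. Of 26 squamous keratinocyte genes, 2 rose (7.69%) and 3 fell (11.5%). Their median ratio was -1.05 in the iFGFR1 tumours, and among all genes from -2 to -1, 15.6% fell and 3.49% rose. Krt13, a keratin of stratified epithelium, rose by 1.16 (adjusted p = 0.00912), the only call of that list that held.

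**Figure D4:**
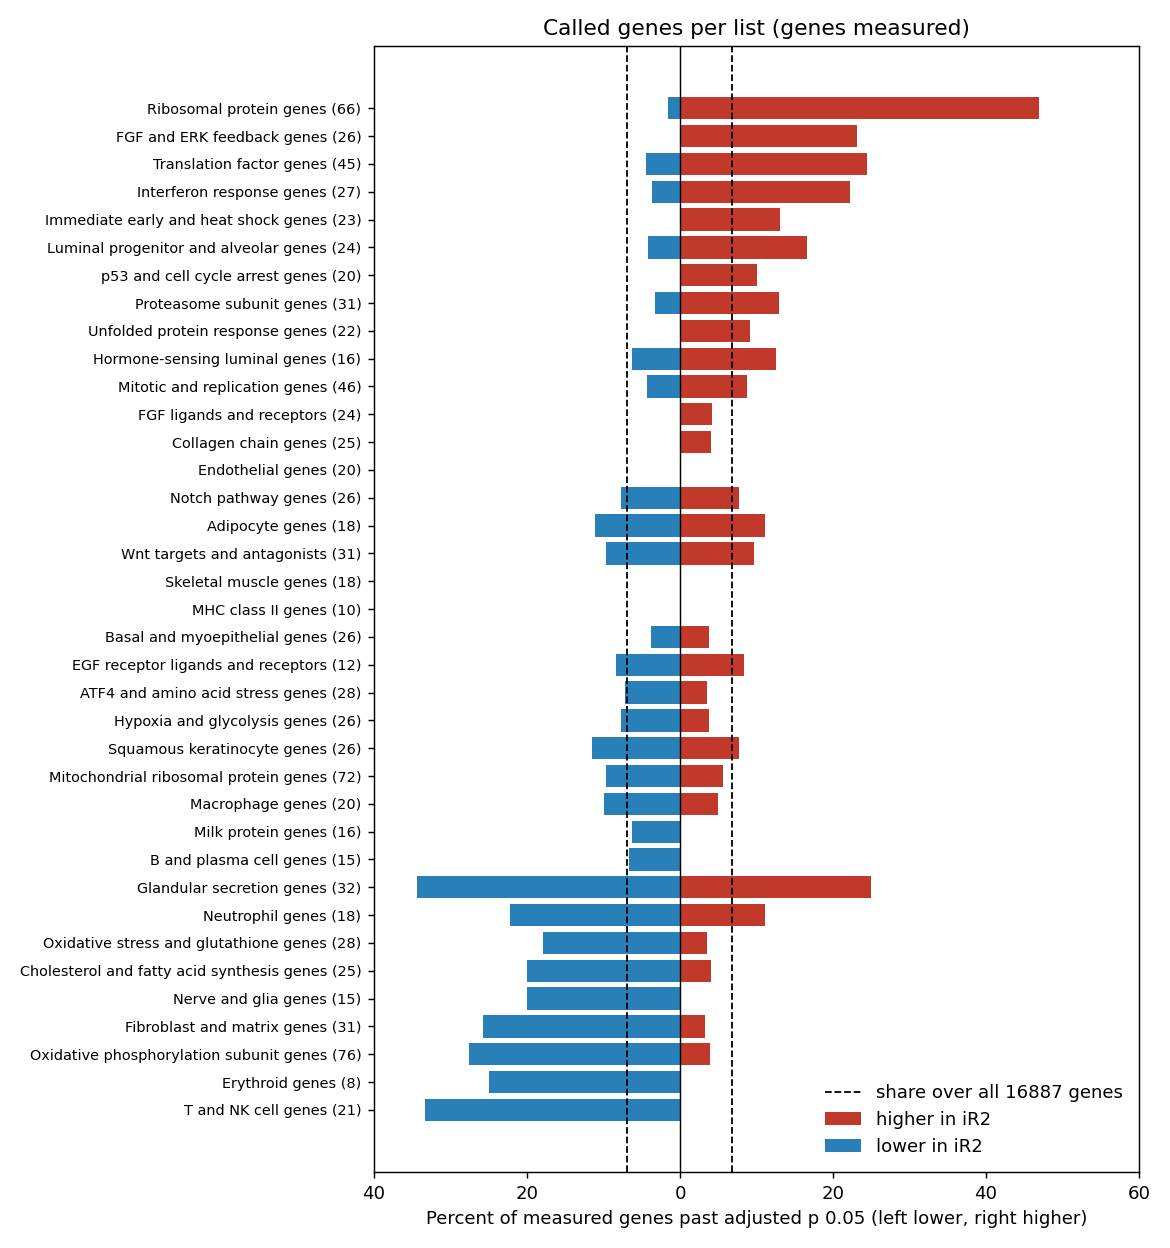
Percent of the measured genes of each list past an adjusted p of 0.05, to the right for higher and to the left for lower in iR2, with the number measured in brackets. Dashed lines mark the shares over all 16887 genes, 6.74% higher and 6.98% lower; ribosomal protein genes reach 47.0% on the right and T and NK cell genes 33.3% on the left.

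Ribosomal protein genes gave the largest group of rises. Of 66 measured, 31 rose (47.0%, against 6.74% of all genes), 1 fell and 34 did not pass, and the median difference was 0.53. The mean of the list lay at 0.70 to 1.01 on the iR2 arrays, at 0.15 to 0.34 on 5 Wnt1 arrays and at 0.58 on Wnt1 replicate 3, so the groups did not overlap. Both subunits took part, with 13 of 26 genes of the small subunit and 17 of 39 of the large subunit rising. Rplp0, a protein of the ribosomal stalk, read 1.48, 1.35, 1.71 and 1.14 against a median of -0.26 (-0.74 to 0.63), a rise of 1.59 (SE 0.23, adjusted p = 0.00316). Rpl19 read 1.25, 1.22, 1.49 and 1.27 against a median of -0.29 (-0.66 to 0.75), a rise of 1.5 (adjusted p = 0.00358). Rps14 rose by 1.39 (adjusted p = 0.00358) and Rpl11 by 1.15 (adjusted p = 0.00393). The fall was in Rpl30, by 0.55 (adjusted p = 0.0203), a call that 3 omissions ended. The number of rises ran from 19 without iR2 replicate 3 to 37 without Wnt1 replicate 3, and 19 held. With the interquartile range of each array as a covariate, 5 rises passed. Many of these genes have processed copies in the genome that a probe may not separate.

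Of 45 translation factors 11 rose (24.4%, against 6.74% of all genes) and 2 fell (4.44%, against 6.98%), with a median of 0.24. The rises numbered 3 without iR2 replicate 2 and 15 without Wnt1 replicate 3. With the interquartile range of each array as a covariate, 1 rise passed. Beside Pabpc1, Eif4ebp2, a repressor of cap-dependent initiation, rose by 1.03 (adjusted p = 0.00864) and Eef1a1, the elongation factor that delivers tRNA, by 1.16 (adjusted p = 0.0114), and these 3 calls held. The cap-binding protein Eif4e fell by 0.88 (adjusted p = 0.0231) and the helicase Eif4a1 by 0.85 (adjusted p = 0.0176), and 3 and 2 omissions ended these calls. Of 72 genes of the mitochondrial ribosome, 4 rose (5.56%) and 7 fell (9.72%), with a median of -0.10, and no call in that list held.

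Subunits of oxidative phosphorylation fell more often than they rose. Of 76, 21 fell (27.6%, against 6.98% of all genes) and 3 rose, with a median of -0.19. The list had a median ratio of -0.88 in the iFGFR1 tumours, and among all genes from -1 to 0 the share that fell was 6.11%. Complexes III and IV had median ratios of -1.08 and -1.17 there. Among all genes from -2 to -1 the share that fell was 15.6%, against 22.2% in complex III and 41.7% in complex IV. The mean of the list lay between -1.01 and -0.94 on the Wnt1 arrays, replicate 3 included, and between -1.23 and -1.18 on the iR2 arrays. By complex, 11 of 35 genes fell in complex I, 0 of 4 in complex II, 2 of 9 in complex III, 5 of 12 in complex IV and 2 of 15 in ATP synthase, and the carrier Cycs fell as well, a call that 3 omissions ended. Ndufa11, an accessory subunit of complex I, read -1.25, -1.11, -1.39 and -1.02 against a median of 0.56 (-0.42 to 0.87), a fall of 1.63 (SE 0.22, adjusted p = 0.00231). Ndufc1 fell by 1.44 (adjusted p = 0.00801), Cox7a2 by 1.17 (adjusted p = 0.00798) and Ndufa4 by 0.84 (adjusted p = 0.00788). The rises were in Ndufa10 (1.02, adjusted p = 0.00676), in Atp5b (1.41, adjusted p = 0.012), the catalytic subunit of ATP synthase, and in Atp5a1 (0.66, adjusted p = 0.0438), and 7 omissions ended the last of these calls. Of the 21 falls 9 held, and with the interquartile range as a covariate 2 passed. Leaving out iR2 replicate 1 gave 9 falls, the fewest, and leaving out Wnt1 replicate 3 gave 23.

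**Figure D5:**
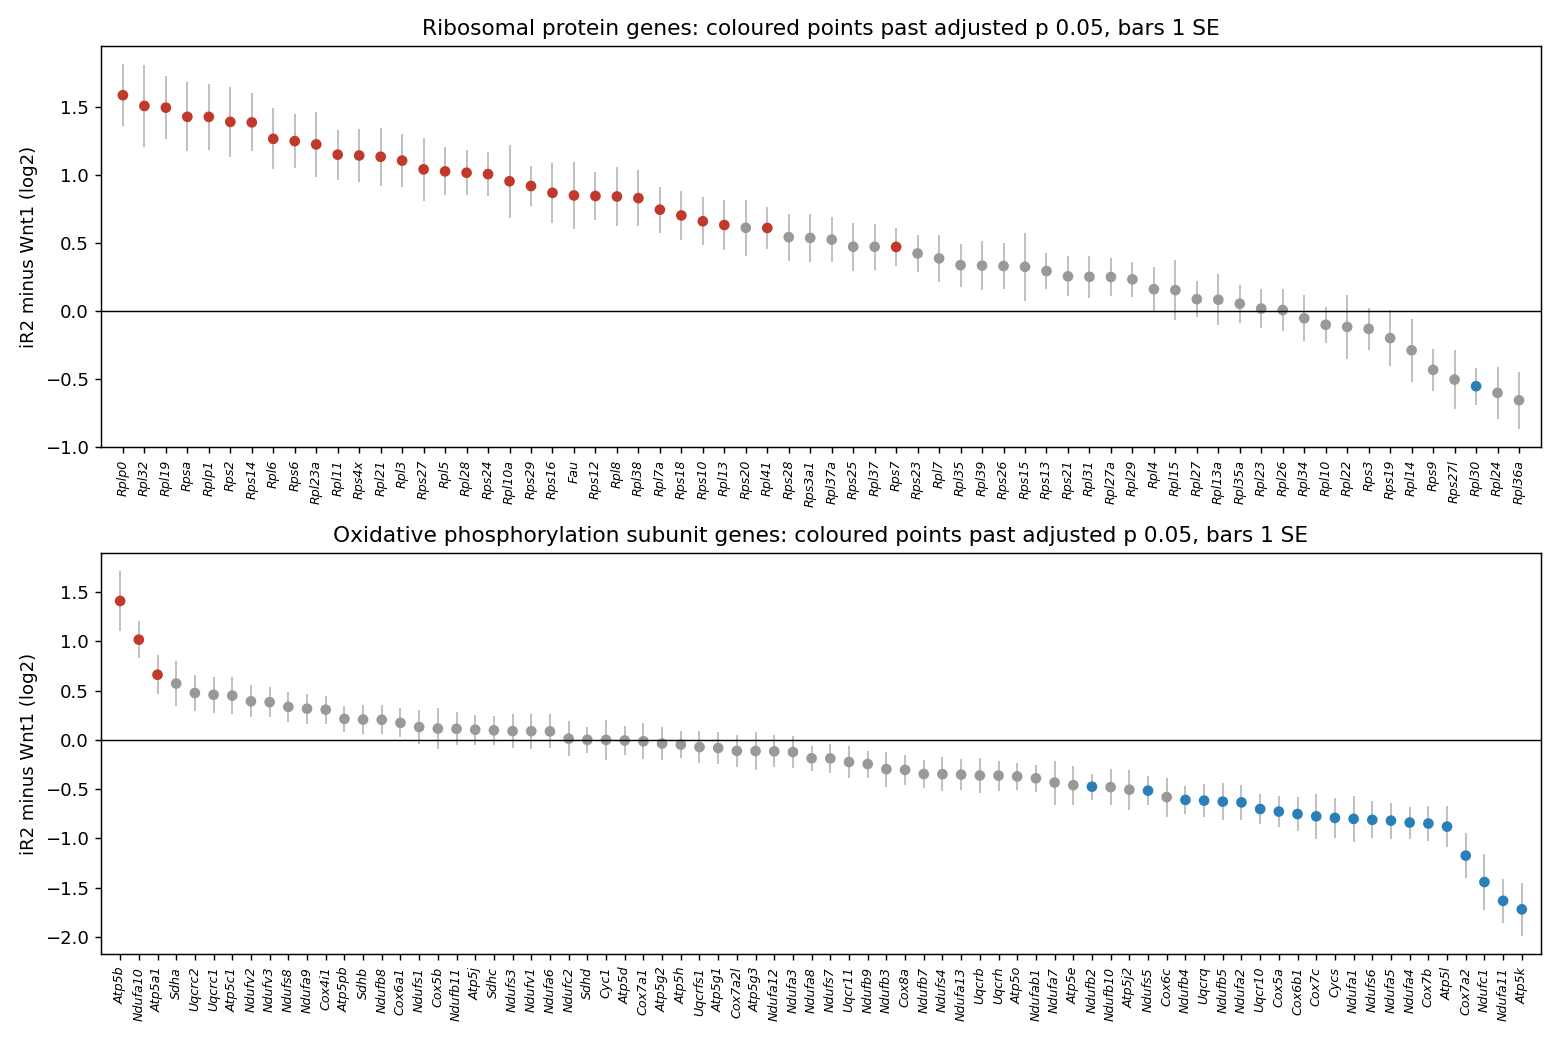
Difference of mean log2 ratio, iR2 minus Wnt1, for each measured ribosomal protein gene (top) and oxidative phosphorylation subunit (bottom), ordered by size; bars are 1 SE and coloured points passed an adjusted p of 0.05. In the top panel 31 of 66 genes are coloured above 0, and in the bottom panel 21 of 76 are coloured below 0.

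In tumour tissue, fewer cells of a type and less RNA per cell cannot be told apart. Of 31 fibroblast and matrix genes, 8 fell (25.8%, against 6.98% of all genes) and 1 rose, with a median of -0.46. The list had a median ratio of -1.89 in the iFGFR1 tumours, and among all genes from -2 to -1 the share that fell was 15.6%. Fbln1, the matrix protein fibulin-1, read -0.26, -0.20, -0.23 and -0.42 against a Wnt1 median of 1.23 (0.50 to 1.48), a fall of 1.34 (SE 0.20, adjusted p = 0.00358). This call and that of S100a4 held. Twist2, a mesenchymal transcription factor, fell by 0.74 (adjusted p = 0.0149), Twist1 by 0.98 (adjusted p = 0.0201) and the receptor Pdgfrb by 0.46 (adjusted p = 0.0437), and 2, 3 and 7 omissions ended these calls. The mean of the list overlapped between groups, at -1.93 to -1.65 in iR2, -1.69 to -1.39 on 5 Wnt1 arrays and -0.69 on replicate 3. Without replicate 3 the list median was -0.21, and without iR2 replicate 2 the falls numbered 2.

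Collagen chains did not fall with these genes: of 25, Col9a1 rose (1.29, adjusted p = 0.0091), a call that held, and none fell. None of 20 endothelial and none of 18 skeletal muscle genes was called. The muscle list had a median ratio of -4.12 in the iFGFR1 tumours, and among all genes below -4 the share that fell was 26.8%. Of 18 adipocyte genes, 2 rose (11.1%, against 6.74% of all genes) and 2 fell (11.1%, against 6.98%). Adipocyte genes had a median ratio of -2.83 in the iFGFR1 tumours. Among all genes from -4 to -2, 25.4% fell and 1.82% rose. Plin1, which coats fat droplets, read -4.91, -4.93, -4.61 and -5.03 against a median of -3.54 (-3.90 to -3.18), a fall of 1.33 (adjusted p = 0.00199) that held. Of 15 nerve and glia genes, 3 fell (20%), among them Snap25, a protein of synaptic vesicle fusion, by 1.23 (adjusted p = 0.00645). That list had a median ratio of -2.98 in the iFGFR1 tumours, and among all genes from -4 to -2 the share that fell was 25.4%. The median differences of the collagen, endothelial, adipocyte and muscle lists changed sign under at least 1 rescaling of the arrays, so no direction is given for them.

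Of 21 genes of T and NK cells, 7 fell (33.3%, against 6.98% of all genes), 14 did not pass and none rose, with a median of -0.42, and without Wnt1 replicate 3 there were 8 falls and 2 rises with a median of -0.28. The list had a median ratio of -0.30 in the iFGFR1 tumours, and among all genes from -1 to 0 the share that fell was 6.11%. Gzma, a granzyme of killer cells, read -2.24, -2.0, -2.62 and -2.75 against a median of -1.26 (-1.80 to -0.79), a fall of 1.18 (SE 0.22, adjusted p = 0.00721). Cd3d, a chain of the T cell receptor complex, read -2.16, -2.33, -1.96 and -2.57 against a median of -1.43 (-1.78 to -1.16), a fall of 0.80 (adjusted p = 0.0118). Cd5 fell by 0.71 (adjusted p = 0.00934) and Nkg7, a granule protein, by 0.68 (adjusted p = 0.0123), and these 4 calls held. Cd3e, Cd247 and Cd2 fell by 0.70, 0.60 and 0.50, calls that 4, 4 and 7 omissions ended. The mean of the list lay at -0.69 to -0.54 on the iR2 arrays and at -0.42 to -0.14 on the Wnt1 arrays. Without iR2 replicate 1 the falls numbered 4, and with the interquartile range as a covariate 1.

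Myeloid genes went both ways. Of 20 macrophage genes, 1 rose (5%, against 6.74% of all genes) and 2 fell (10%, against 6.98%), so the shares were near those of all genes. The rise was in Arg1, the arginase of alternatively activated macrophages, and the falls in Cd163 and Marco, scavenger receptors. Arg1 read 0.21, -0.28, -0.48 and -0.39 against a median of -1.50 (-2.86 to -1.16), a rise of 1.55 (SE 0.32, adjusted p = 0.0104), and Cd163 fell by 0.88 (adjusted p = 0.00957), and both calls held, while 9 omissions ended that of Marco. Of 18 neutrophil genes, 2 rose (11.1%) and 4 fell (22.2%). Camp, the antimicrobial cathelicidin, read -5.60, -5.91, -5.68 and -5.63 against a median of -4.45 (-5.02 to -4.43), a fall of 1.15 (adjusted p = 0.00215) that held. Pglyrp1, a peptidoglycan-binding protein of granules, rose by 1.09 (adjusted p = 0.0208) and the chemokine Cxcl1 by 1.01 (adjusted p = 0.0369), and 3 and 6 omissions ended these calls. Of 15 B and plasma cell genes 1 fell (6.67%, near the 6.98% of all genes), and none of 10 MHC class II genes was called.

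Of 27 interferon response genes, 6 rose (22.2%, against 6.74% of all genes) and 1 fell (3.7%), with a median of 0.43. Rtp4 read -0.74, 0.97, 0.16 and 0.12 against a median of -1.52 (-2.25 to -0.86), a rise of 1.64 (SE 0.32, adjusted p = 0.00789) that held. Ifih1, a sensor of viral RNA, rose by 1.06 (adjusted p = 0.0224), Oasl2 by 0.94 (adjusted p = 0.0226) and Irf9 by 0.90 (adjusted p = 0.0272), and 2, 3 and 5 omissions ended these calls. The mean of the list lay at -0.40 to 0.20 on the iR2 arrays, at -0.68 to -0.41 on 5 Wnt1 arrays and at -0.09 on Wnt1 replicate 3. The groups therefore overlapped through replicate 3, and without it 10 genes rose. Without iR2 replicate 2 a single rise was left, and with the interquartile range as a covariate none passed.

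Against the iFGFR1 tumours, 2268 genes (13.4%) differed, 946 higher (5.6%) and 1322 lower (7.83%) in iR2, in a fit of the iR2, iFGFR1 and Wnt1 arrays. This comparison shares the iR2 arrays with the one above, so the values are set side by side and not counted as support. Of the 12 genes that rose most against Wnt1, 4 were also higher than in iFGFR1: Tspan8 by 2.60 (adjusted p = 0.00035), Pabpc1 by 2.0 (adjusted p = 0.00052), Scgb2b27 by 1.96 (adjusted p = 0.0215) and Matr3 by 1.01 (adjusted p = 0.0337). Car6 (1.10, adjusted p = 0.22), Cldn10 (0.70, adjusted p = 0.38), Spdef (0.21, adjusted p = 0.71) and Aqp5 (-0.78, adjusted p = 0.20) did not pass. Fgfr1 itself was lower in iR2 than in iFGFR1 by 1.04 (adjusted p = 0.0021).

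Of the 12 largest falls, 5 were also lower than in iFGFR1: Zic1 by 2.51 (adjusted p = 0.00042), H4c4 by 2.19 (adjusted p = 0.003), Vstm2a by 1.95 (adjusted p = 0.016), Atp5k by 1.83 (adjusted p = 0.00067) and Reg1 by 1.57 (adjusted p = 0.025). Of the 66 ribosomal protein genes, 26 were higher in iR2 than in iFGFR1 and 0 lower, with a median of 0.58. Over all genes 5.6% were higher and 7.83% lower in that comparison, and the list counts here are to be read beside those shares. Lists that gave few calls against Wnt1 also differed from iFGFR1. Of 26 hypoxia and glycolysis genes 15 were lower in iR2, and of 28 genes of the ATF4 amino acid response 12 were lower. Of 31 Wnt targets and antagonists 8 were higher and 3 lower, with Wif1 higher by 2.94 (adjusted p = 1.4e-05) and Lgr5 by 2.80 (adjusted p = 6.4e-05). Of 25 collagen chains 9 were higher and 0 lower, and of 26 basal and myoepithelial genes 8 were higher and 1 lower. Arg1, which rose against Wnt1, was lower than in iFGFR1 by 1.71 (adjusted p = 0.0038).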

How the data were processed

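Total RNA of primary mouse mammary tumours, extracted by column kit, was labelled with Cy5 and whole-mouse RNA, extracted by TRIZOL, with Cy3, per the labels. The authors deposited 1 table of log2 ratios for 22575 array features with no empty cell. Base and direction are not stated in it, so the base was read as 2 and the direction, tumour over reference, was taken from the dyes. For scanner, background correction and normalization the sources used here give nothing. The number of arrays limits the precision.

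Features with 1 symbol in the platform annotation (18658) were averaged per symbol, which gave 16887 genes, 15640 of them from a single feature. 30 features with several symbols and 3887 with none were left out. Groups came from the label of the tumour channel. Replicates were numbered in accession order. iR2 and Wnt1 were compared with limma 3.58.1 (lmFit, eBayes) in R 4.3.3 on the 10 arrays without covariates, and iR2 and iFGFR1 in a fit of 14 arrays in 3 groups. Differences are of mean log2 ratios with a standard error (SE), and p-values were adjusted by Benjamini-Hochberg over all genes, with a threshold of 0.05. The fit was tested on simulated data. Every adjusted p in the text is from these limma fits.

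Named genes were those of the labels, the 12 largest rises and falls among called genes whose groups do not overlap (unnamed clones passed over), and up to 4 called members per list by smallest p. List members beyond these were named after their values were seen. The comparison, the members of the 37 lists and the rule were chosen with earlier results of these data known, so lists are described by counts and medians only. Alternatives were other sets of arrays, scaling, weights, priors, feature choice, a variance filter, covariates and each array left out.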

Additional observations from a re-analysis of the deposited data

Results flagged for a closer look

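In 254 groups of values examined, the 4 iR2 or 6 Wnt1 readings of a gene named for its label, its size or its list, 25 had a highest or lowest array far from its nearest neighbour, where chance gives about 1 in 20 groups. Of these, 15 were readings of Wnt1 replicate 3. It was the highest Wnt1 array for Car6 (-2.71), Hey1 (1.77), Phlda1 (2.93), Notch1 (1.20), Rpl11 (1.10), Rpl19 (0.75), Mrpl9 (-0.58), Pmp22 (-1.31) and Pnpla2 (-0.998). It was the lowest for Camp (-5.02), Hmgcs1 (-1.66), Mrpl23 (-0.43), Mthfd2 (-0.75), Olfr665 (-0.55) and P4ha2 (-0.35).

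Among the other Wnt1 arrays, replicate 6 was far above the rest for Reg1 (0.43) and Vstm2a (-0.12), and both calls held without it. Replicate 5 was high for Dusp4 (1.14) and low for Fgfr1 (-0.056). Replicate 1 was high for Fgfr3 (0.48) and low for Fgfr4 (-2.40), and replicate 2 was low for Ero1a (-0.45). In iR2, replicate 2 was high for Irf9 (1.34) and low for Marco (-2.69), and replicate 1 was high for Pkm (0.16).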

How the results depend on the processing

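The share of genes called between iR2 and Wnt1, 13.7%, ran from 4.97% without iR2 replicate 2 to 23.7% without Wnt1 replicate 3 as each array was left out in turn, and was 5.68% without iR2 replicate 1 and 5.25% without iR2 replicate 3. The share against iFGFR1, 13.4%, ran from 8.01% without iR2 replicate 2 to 15.5% without iFGFR1 replicate 2. Between iR2 and Wnt1 it was 7.1% (1199 genes) with all 18 arrays sharing one spread, 28.6% (4832) with array weights, 3% (506) at an adjusted p under 0.01, 0.308% (52) with the title number as a covariate and 1.49% (252) with the interquartile range as a covariate, which was added after the data were seen. The interquartile range follows the group in part, so its effect and that of the group cannot be fully told apart. The counts under other scalings, feature choices, priors and the variance filter stayed within 1.5 times of 2317. No named call reversed under any alternative run. A call that held under omissions could still be lost with 18 arrays, as were those of Ero1a (adjusted p = 0.129), Cd163 (adjusted p = 0.0678), Gpx4 (adjusted p = 0.0652) and Plin1 (adjusted p = 0.052). Of the 121 named called genes, 96 stayed past the threshold with 14 arrays, 86 with 18 arrays, 31 with the interquartile range and 5 with the title number (Eif4ebp2, Fbln1, Psmd1, Scgb2b27 and Tspan8). Fgfr1 passed with array weights (adjusted p = 0.0257) and with arrays scaled to a common spread (adjusted p = 0.0443). No paired analysis was possible because the replicate numbers follow accession order and pair no samples. Signal over background is not analysed here.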

Other observations

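Lists of cell division and stress were counted as well, and over all genes 6.74% rose and 6.98% fell. Of 46 mitotic and replication genes, 4 rose (8.7%) and 2 fell (4.35%). Without Wnt1 replicate 3 the rises numbered 9, where 11% of all genes rose. Kif11, a spindle motor, rose by 1.02 (adjusted p = 0.00584) and Cenpe, a kinetochore motor, by 0.77 (adjusted p = 0.00684), and these 2 calls held with each array left out. Of 20 genes of p53 and cell cycle arrest, 2 rose (10%) and none fell. Sesn1 rose by 1.09 (adjusted p = 0.00358) and Mdm2, the ubiquitin ligase of p53, by 0.92 (adjusted p = 0.0143), and both held. Of 31 proteasome subunits, 4 rose (12.9%) and 1 fell (3.23%). Psmd1, a subunit of the regulatory cap, rose by 1.59 (adjusted p = 0.00521), the only call of that list that held. Of 26 hypoxia and glycolysis genes, Ero1a rose by 1.06 (adjusted p = 0.00838) and held, and 7 omissions ended the fall of Pkm and 7 that of P4ha2. No call held among 28 genes of the ATF4 response (1 rise, 2 falls), 22 of the unfolded protein response (2 rises) or 8 erythroid genes (2 falls). The erythroid list had a median ratio of -2.71 in the iFGFR1 tumours. Its falls were 25% of the list, and among all genes from -4 to -2 the share that fell was 25.4%.

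Of 25 genes of cholesterol and fatty acid synthesis, 5 fell (20%, against 6.98% of all genes) and 1 rose (4%), with a median of -0.20. Hmgcs1, an early enzyme of the sterol pathway, fell by 1.02 (adjusted p = 0.00671) and held, while Msmo1, with a fall of 1.25 (adjusted p = 0.0138), was ended by 2 omissions (adjusted p of up to 0.0522). Of 28 genes of oxidative stress and glutathione, 5 fell (17.9%) and 1 rose (3.57%). Catalase, Cat, rose by 1.23 (adjusted p = 0.00732), and the glutathione peroxidases Gpx4 and Gpx2 fell by 0.82 (adjusted p = 0.00648) and 0.74 (adjusted p = 0.00655), and these 3 calls held.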
